A study of Homo sapiens and Mus musculus with 12 samples.

Results

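LSD1 peaks of K562 cells that lie at GFI1 sites of THP1 cells were described. An LSD1 peak was a member when it overlapped a THP1 GFI1 peak by at least 1 bp, and 301 of the 6548 LSD1 peaks met this rule. They made up 4.60% of the LSD1 peaks (95% Wilson interval 4.12 to 5.13%) and lay at 301 of the 3461 THP1 GFI1 peaks, or 8.70% (7.80 to 9.68%). Each member met a single THP1 GFI1 peak and each of these GFI1 peaks a single member. Membership was chosen on these 2 peak lists. The size of the overlap and the strength of the member peaks in these 2 libraries are therefore a description. The same holds for how often members carry the DNA motif of GFI1. Brackets after a share give its 95% Wilson interval, in which counting error is the only error covered.

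The study profiled binding of LSD1, GFI1 and SPI1 by chromatin immunoprecipitation and sequencing (ChIP-seq) in 2 human leukemia lines. THP1 is a monocytic line, and its GFI1 and SPI1 ChIPs came from cells without an sgRNA in the labels. K562 is a line of red cell and megakaryocyte character, and its cells carried Cas9 and 1 of 2 kinds of sgRNA, a non-targeting control called sg-NT or one directed at LSD1 called sg-LSD1. The LSD1 ChIP was made in sg-NT K562 cells, and the GFI1 ChIP in both sg-NT and sg-LSD1 K562 cells. Cells of all 5 ChIPs were fixed with DSG and formaldehyde. Each of these ChIPs had 1 library, so no difference between libraries could be tested and no value has a replicate check. Line and library cannot be told apart when a THP1 list is set beside a K562 list, nor can the antibody where the targets differ. The methods of the study name the same GFI1 antibody for both lines. Sites that this antibody enriches in any cells could enter both GFI1 lists, which was not tested. The lists hold no expression values, so the cell lines were not checked against marker genes.

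LSD1 (KDM1A) removes methyl groups from lysine 4 of histone H3 and works inside the CoREST corepressor complex, which also holds histone deacetylases. GFI1 is a zinc finger repressor of myeloid cells whose SNAG domain binds LSD1, and GFI1B is its close relative in red cells and platelets, with the same DNA core. SPI1 (PU.1) is the ETS factor that drives myeloid genes, and GFI1 is known to oppose it.

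For every peak the lists give a summit, a fold and a −log10 p. The fold is the pileup of fragments over the local background at the summit. No read totals were at hand, but the fold and −log10 p together gave the number of fragments over each summit. This number had a median of 11 to 13 in the 5 lists and of 14 at the member LSD1 peaks (6 to 70). The K562 GFI1 lists were short, with 498 peaks in sg-NT and 160 in sg-LSD1 cells. A site without a K562 GFI1 peak was therefore below the calling threshold at this depth, not shown to be unbound.

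Sequences of 100 bp centred on the LSD1 summit are shown for the members that the motif results turn on. The first set holds the 6 members highest in LSD1 −log10 p whose window contains the GFI1 core AATCAC. The core is in capitals, and reads GTGATT where it lies on the minus strand. All sequences are from the plus strand of GRCh38, 5′ to 3′, and in each set sites on chromosomes 8 and 18 and windows that overlap an exon of a protein-coding gene were passed over.
IBA57, upstream of the gene, chr1:228164653-228164752: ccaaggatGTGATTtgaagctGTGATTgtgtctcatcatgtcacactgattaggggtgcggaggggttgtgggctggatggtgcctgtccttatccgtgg
TBPL1, intron 4, chr6:133983588-133983687: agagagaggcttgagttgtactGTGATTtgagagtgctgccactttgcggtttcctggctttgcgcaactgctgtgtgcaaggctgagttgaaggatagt
TMPO, intergenic, chr12:98440212-98440311: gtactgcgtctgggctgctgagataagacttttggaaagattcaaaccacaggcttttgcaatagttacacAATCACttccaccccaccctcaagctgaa
CIZ1, intron, chr9:128192994-128193093: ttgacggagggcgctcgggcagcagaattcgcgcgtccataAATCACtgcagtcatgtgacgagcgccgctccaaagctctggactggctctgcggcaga
NBPF1, intron 1, chr1:16612737-16612836: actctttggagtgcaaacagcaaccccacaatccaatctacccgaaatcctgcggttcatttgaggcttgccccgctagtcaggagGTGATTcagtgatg
UBAC1, intergenic, chr9:135992773-135992872: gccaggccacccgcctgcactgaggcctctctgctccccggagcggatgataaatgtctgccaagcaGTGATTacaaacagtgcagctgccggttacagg

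The IBA57 window held 2 copies of the GFI1 core and each of the other 5 windows held 1. The second set holds the 3 members highest in LSD1 −log10 p whose window lacks AATCAC on either strand, and they are the 3 strongest members of all.
TIGAR, upstream of the start, chr12:4320916-4321015: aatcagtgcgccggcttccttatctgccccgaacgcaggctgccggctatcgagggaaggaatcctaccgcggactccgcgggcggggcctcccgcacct
CEBPE, downstream of the gene, chr14:23112815-23112914: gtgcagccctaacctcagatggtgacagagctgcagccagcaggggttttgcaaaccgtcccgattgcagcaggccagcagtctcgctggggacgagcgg
CDH15, intron 5, chr16:89186410-89186509: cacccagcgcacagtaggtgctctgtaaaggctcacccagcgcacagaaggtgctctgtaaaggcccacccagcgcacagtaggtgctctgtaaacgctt

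The third set, chosen after the values were seen, holds the 3 members highest in LSD1 −log10 p with a GATA core (AGATAA or TGATAA, either strand) within 25 bp of the summit, here in capitals.
COPZ1, intron, chr12:54304455-54304554: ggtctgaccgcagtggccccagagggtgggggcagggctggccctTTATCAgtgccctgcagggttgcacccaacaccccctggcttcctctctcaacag
AGRP, intergenic, chr16:67489225-67489324: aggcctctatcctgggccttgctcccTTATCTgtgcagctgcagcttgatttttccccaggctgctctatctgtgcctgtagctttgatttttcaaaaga
DDIT4, intergenic, chr10:72297416-72297515: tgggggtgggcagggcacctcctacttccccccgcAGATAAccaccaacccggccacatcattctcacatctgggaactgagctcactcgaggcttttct

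Member peaks were, as a description, slightly stronger and wider than the other 6247 LSD1 peaks. The median LSD1 fold was 7.42 at members (3.86 to 40.9) and 6.98 at the others (3.41 to 54.0), and the median width was 427 bp against 348 bp. The THP1 GFI1 fold had a median of 7.73 at members (4.09 to 46.2) and of 7.35 at the 3160 THP1 GFI1 peaks without LSD1. The LSD1 and GFI1 folds were weakly related across the members, with a Spearman rho of 0.12 over 301 sites. These sites share 2 libraries and are not independent replicates.

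The member and THP1 GFI1 intervals covered each other closely in most cases. They shared a median of 315 bp (15 to 1150), which was 95.7% of the shorter peak. The LSD1 and THP1 GFI1 summits lay a median of 90 bp apart (0 to 861), and in 158 of 301 members (52.5%, 46.9 to 58.1%) at most 100 bp apart. Just inside the rule, the peaks near MLXIPL, NBPF4 and MBOAT7 shared 15, 17 and 35 bp with a THP1 GFI1 peak, at LSD1 folds of 7.31, 6.75 and 5.52. Just outside it, the LSD1 peaks near CYP51A1, BHLHE40 and AP4B1 were separated from a THP1 GFI1 peak by 6, 11 and 24 bp, at LSD1 folds of 7.26, 14.0 and 4.26. In all, 74 other LSD1 peaks lay within 500 bp of a THP1 GFI1 peak.

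**Figure D1:**
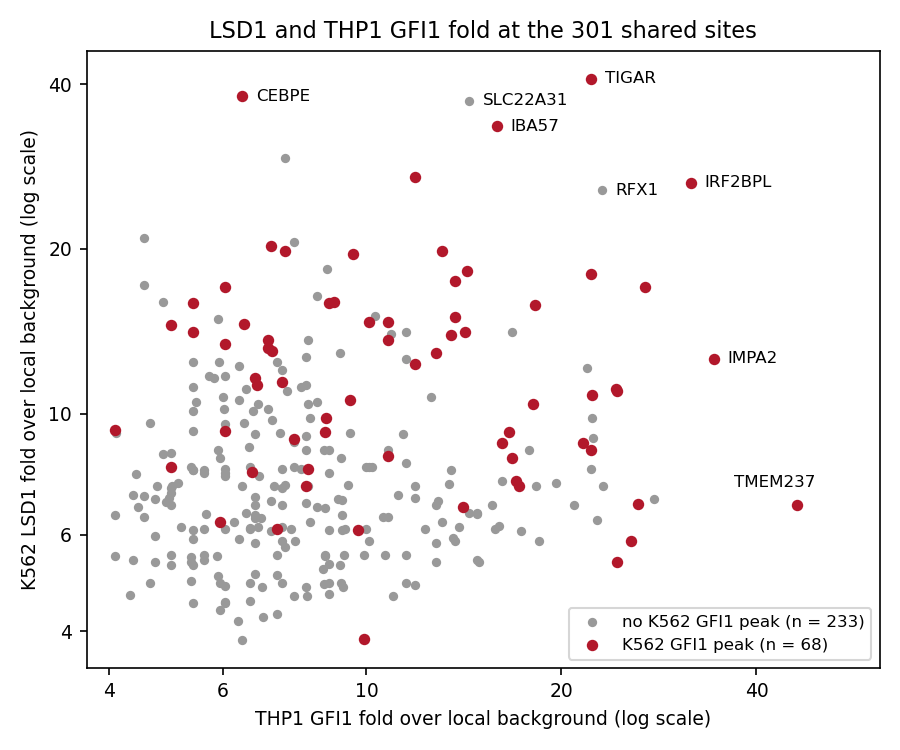
LSD1 fold in sg-NT K562 cells (vertical, log scale) against GFI1 fold in THP1 cells (horizontal, log scale) at the 301 members, with members that had a GFI1 peak in sg-NT K562 cells in red and nearest genes named for 8. The 68 red points lie higher than the 233 grey ones, with median LSD1 folds of 12.0 and 6.95.

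A GFI1 peak of sg-NT K562 cells was found at 68 of the 301 members, or 22.6% (18.2 to 27.6%). It was found at 390 of all 6548 LSD1 peaks, or 5.96%, and at 322 of the 6247 other LSD1 peaks, or 5.15% (4.63 to 5.73%). The K562 GFI1 list was not used by the rule. Read from the other side, 67 of the 390 K562 GFI1 peaks at LSD1 peaks lay at a THP1 GFI1 peak (17.2%, 13.8 to 21.2%), as did 14 of the 108 K562 GFI1 peaks without LSD1 (13.0%, 7.88 to 20.6%). Of the THP1 GFI1 peaks without a K562 LSD1 peak, 14 of 3160 (0.443%, 0.264 to 0.742%) had a K562 GFI1 peak. The intervals of the first 2 of these shares overlapped, and few THP1 GFI1 sites without LSD1 had a called GFI1 peak in K562 cells.

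The members with a K562 GFI1 peak were stronger in both the LSD1 and the THP1 GFI1 ChIP. Their median LSD1 fold was 12.0, against 6.95 for the other 233 members. Their median THP1 GFI1 fold was 10.8, against 7.41. Their LSD1 and THP1 GFI1 summits lay a median of 46.0 bp apart, against 108 bp, and their K562 GFI1 and LSD1 summits 40.5 bp apart. Across the 68 sites, the K562 GFI1 fold ranked with the LSD1 fold of the same cells (Spearman rho 0.58) and less with the THP1 GFI1 fold (rho 0.17). At the 322 other LSD1 peaks with a K562 GFI1 peak the first of these was 0.51. The median LSD1 fold of those 322 peaks was also 12.0, so this LSD1 strength was not particular to members.

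Because the strength of the LSD1 peak moved with the GFI1 share, members and other peaks were also compared at like strength. All LSD1 peaks were divided by −log10 p into 4 groups of equal size. In the strongest group, with a −log10 p of at least 16.6, 48 of 100 members had a K562 GFI1 peak (48.0%, 38.5 to 57.7%), against 233 of 1537 others (15.2%, 13.5 to 17.0%). In the next group the shares were 18.2% (11.2 to 28.2%) and 3.72% (2.89 to 4.78%). In the third they were 5.97% (2.35 to 14.4%) and 1.21% (0.776 to 1.88%). In the weakest they were 3.51% (0.968 to 11.9%) and 0.759% (0.435 to 1.32%), where the intervals overlapped. The part of the greater width of the members in this difference was not tested. The share was higher for members in each group, and within the members it fell from the strongest to the weakest LSD1 peaks. When the members were divided by the strength of their THP1 GFI1 peak instead, the share fell from 38.0% (29.1 to 47.8%) in the strongest group to 9.84% (4.59 to 19.8%) in the weakest.

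**Figure D2:**
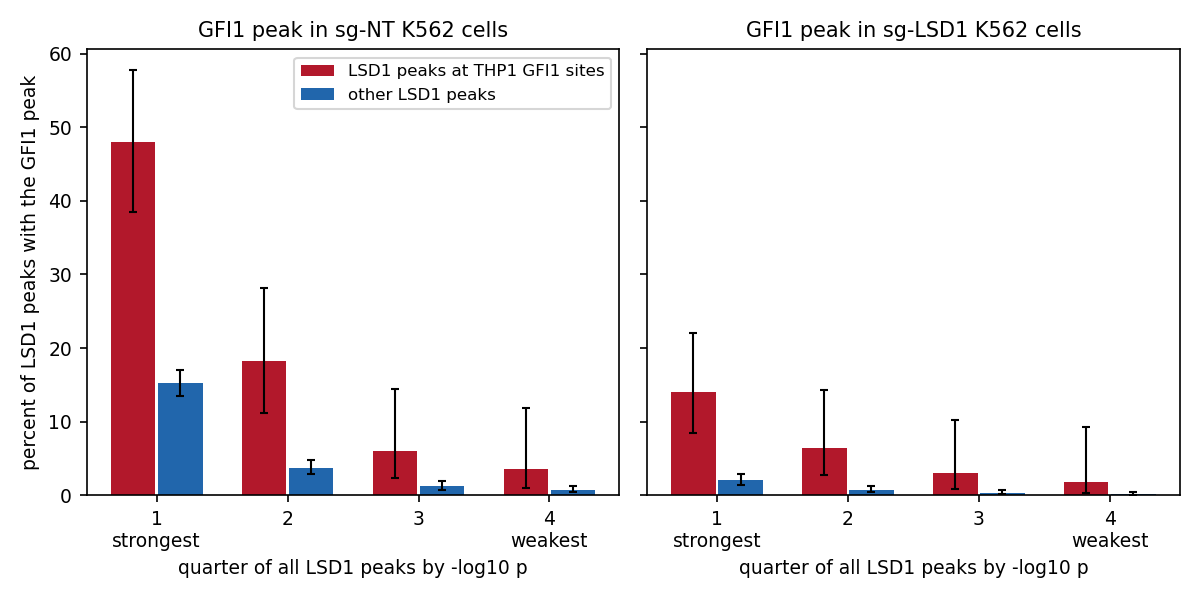
Percent of LSD1 peaks with a GFI1 peak in sg-NT (left) and sg-LSD1 (right) K562 cells, by strength of the LSD1 peak, for the 301 members (red) and the other LSD1 peaks (blue), with 95% Wilson intervals as bars. In sg-NT cells the members go from 48.0% in the strongest group to 3.51% in the weakest, and the others from 15.2% to 0.759%.

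Several of the strongest members carried the largest K562 GFI1 peaks found at members. The K562 GFI1 fold reached 29.3 at members and 55.8 at other LSD1 peaks. The member upstream of TIGAR, which encodes a phosphatase that restrains glycolysis, had folds of 40.9 for LSD1, 22.2 for THP1 GFI1 and 28.1 for GFI1 in sg-NT K562 cells. It spanned chr12:4320720-4321277, with its summit 247 bp upstream of a transcript start. The member 6390 bp downstream of the start of CEBPE, a factor of late granulocyte maturation, had folds of 38.0, 6.43 and 24.1 in the same order. It spanned chr14:23112579-23113197, and its THP1 GFI1 fold was below the median of the members. The member upstream of IBA57, an iron-sulfur cluster assembly factor, had folds of 33.5, 15.9 and 29.3 (chr1:228164375-228165005). It was the one member with a peak in all 5 lists, with a GFI1 fold of 8.99 in sg-LSD1 cells and an SPI1 fold of 9.27.

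Strong LSD1 and THP1 GFI1 peaks also occurred without a called K562 GFI1 peak. The member in intron 5 of CDH15, the gene of M-cadherin, had folds of 37.3 for LSD1 and 14.4 for THP1 GFI1 (chr16:89185780-89187277, nearest start SLC22A31). Its window shown above repeats a short unit in tandem, and the effect of this on its folds was not tested. The member in intron 1 of RFX1, a winged-helix transcription factor, had folds of 25.6 and 23.1. The member in TLE2, a Groucho family corepressor, had folds of 29.3 and 7.50. A further Groucho family site, upstream of TLE6, did have a K562 GFI1 peak, with folds of 19.8, 13.1 and 13.3. The remaining members among the 10 strongest in LSD1 lay in CNIH3 (nearest start WDR26), at 66774 bp from the start of IRF2BPL and in intron 1 of FAM117A, with LSD1 folds of 27.1, 26.4 and 18.4. The first 2 had a K562 GFI1 peak, with folds of 8.07 and 11.7, and the FAM117A site had none in sg-NT cells.

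The 10 members with the largest THP1 GFI1 −log10 p had LSD1 folds of 5.84 to 26.4. Of these 10, 8 had a K562 GFI1 peak, beside 38.0% of members in the strongest THP1 GFI1 group and 22.6% of all members. The largest was at the start of TMEM237, a protein of the ciliary transition zone, with a THP1 GFI1 fold of 46.2, an LSD1 fold of 6.80 and a K562 GFI1 fold of 8.40. The promoter member of IMPA2, an inositol monophosphatase, had folds of 34.4, 12.6 and 9.39. ACVR2A, an activin receptor, had 22.3, 10.8 and 13.6 at its promoter. The others were near IRF2BPL, NQO2, TMEM243, KCTD6, CDC42BPB, C1QTNF8 and HMGN4, with THP1 GFI1 folds of 22.3 to 31.7. Of the 10, those near NQO2, a quinone reductase, and CDC42BPB, a kinase bound by CDC42, had no K562 GFI1 peak. The 10 largest K562 GFI1 peaks at members further included those in FBXO21 and CROCC, at NBPF1 and near AGRP, KCTD6 and RAB42, with K562 GFI1 folds of 10.9 to 17.2.

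In sg-LSD1 K562 cells, 22 members had a GFI1 peak, or 7.31% (4.88 to 10.8%). This compared with 71 of all LSD1 peaks, or 1.08%, and 49 of the other LSD1 peaks, or 0.784% (0.594 to 1.04%). Of the 68 members at which sg-NT cells had a GFI1 peak, 14 had one in sg-LSD1 cells (20.6%, 12.7 to 31.6%), and of the 322 other LSD1 peaks with such a peak 32 did (9.94%, 7.13 to 13.7%), with overlapping intervals. The remaining 8 members had a GFI1 peak in sg-LSD1 but not in sg-NT cells. At the 14 members with both, the GFI1 fold was lower in the sg-LSD1 library at 10, with medians of 10.7 in sg-NT and 8.61 in sg-LSD1 cells. The 2 libraries were not scaled to each other. The 5 such members with the strongest LSD1 peaks were near IBA57, FAM117A, RAB42 (in TAF12), GPIHBP1 and TGIF1 (in DLGAP1), with sg-LSD1 GFI1 folds of 8.99, 6.63, 10.4, 5.06 and 5.24. At FAM117A no GFI1 peak was called in sg-NT cells, and at the other 4 the sg-NT fold was the larger, at 29.3, 13.8, 11.9 and 7.32.

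An SPI1 peak of THP1 cells lay at 16 members, or 5.32% (3.30 to 8.46%). It lay at 51 of all LSD1 peaks, or 0.779%, and at 35 of the other LSD1 peaks, or 0.560% (0.403 to 0.778%). This share was close to that of the THP1 GFI1 peaks without LSD1, of which 175 of 3160 had an SPI1 peak (5.54%, 4.79 to 6.39%). Of these 16, 4 also had a GFI1 peak in sg-NT K562 cells, beside 22.6% of all members. The 5 with the strongest LSD1 peaks were near IBA57, TMEM243, ST3GAL4 (a sialyltransferase), NEK6 (a mitotic kinase) and TRIM69, with SPI1 folds of 9.27, 11.4, 7.83, 15.9 and 6.09.

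Members lay at promoters more often than either source list did. Summits no more than 1000 bp from a protein-coding transcript start were called promoter, and the rest exon, intron or intergenic. Of the members, 131 were at promoters (43.5%, 38.0 to 49.2%), 9 in exons, 70 in introns (23.3%, 18.8 to 28.3%) and 91 intergenic (30.2%, 25.3 to 35.6%). The promoter share was 24.3% (23.3 to 25.4%) for the other LSD1 peaks and 24.1% (22.7 to 25.6%) for the THP1 GFI1 peaks without LSD1. The median distance to a start was 1420 bp for members and 9110 bp for the other LSD1 peaks.

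The members with a K562 GFI1 peak had a lower promoter share than the rest, with intervals that just overlapped. It was 30.9% (21.2 to 42.6%), against 47.2% (40.9 to 53.6%) for members without such a peak and 8.07% (5.57 to 11.6%) for the other LSD1 peaks with a K562 GFI1 peak. Within each place the K562 GFI1 share was higher at members. It was 16.0% (10.7 to 23.3%) against 1.71% (1.17 to 2.5%) at promoters, 21.4% (13.4 to 32.4%) against 6.82% (5.86 to 7.92%) in introns and 33.0% (24.2 to 43.1%) against 5.83% (4.95 to 6.87%) between genes. In exons it was 2 of 9 (22.2%, 6.32 to 54.7%) against 5 of 129 (3.88%, 1.67 to 8.75%), with overlapping intervals.

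**Figure D3:**
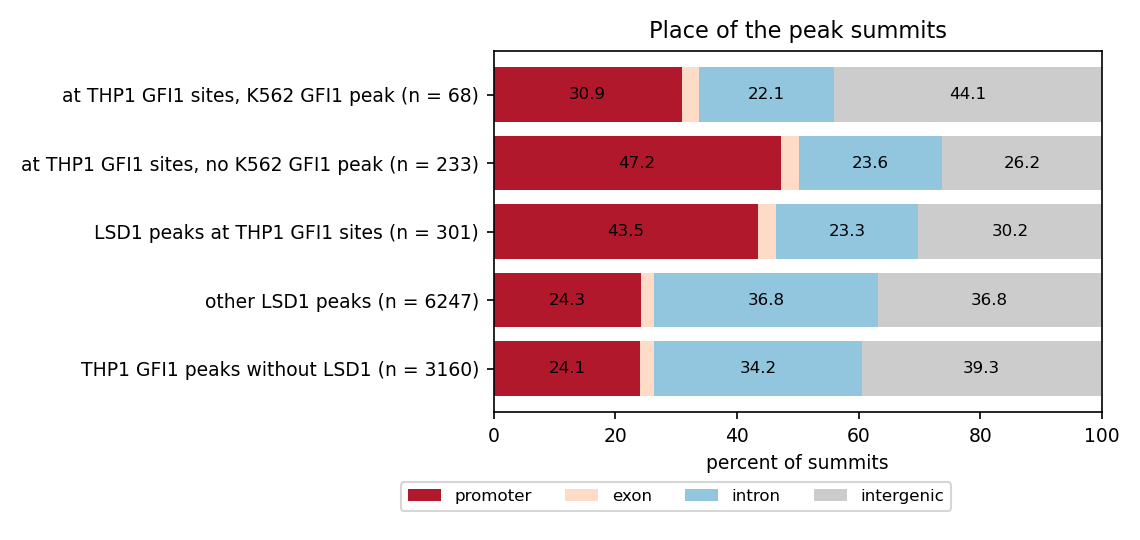
Percent of summits at promoters, in exons, in introns and between genes (stacked bars) for the members, split by a GFI1 peak in sg-NT K562 cells, and for the other LSD1 peaks and the THP1 GFI1 peaks without LSD1. Promoters hold 43.5% of the member summits and 24.3% and 24.1% of the other 2 lists.

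The GFI1 core AATCAC, searched on both strands in the 50 bp at the LSD1 summit, was present at 24 of 301 members, or 7.97% (5.42 to 11.6%). It was present at 2.47% of all LSD1 summits and at 2.21% (1.87 to 2.60%) of the other LSD1 summits. In windows 2000 bp to each side it was present in 3.49% (2.29 to 5.27%) at members and in 2.23% (1.99 to 2.51%) at the others. The core was thus more frequent at member summits than beside them, while at the other LSD1 summits it was no more frequent than beside them. The rule chose members at THP1 GFI1 peaks, so this contrast is a description and not separate support. At the THP1 GFI1 summits of the members it was present in 12.3% (9.05 to 16.5%), and at the other THP1 GFI1 summits in 9.87% (8.88 to 11.0%). At the 24 members with the core the LSD1 and THP1 GFI1 summits lay a median of 27.5 bp apart, against 100.0 bp at the other 277.

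A GFI1 core occurred at members with and without a K562 GFI1 peak. It was present at 10.3% (5.08 to 19.8%) of the 68 members with such a peak and at 7.30% (4.60 to 11.4%) of the 233 without. At the other LSD1 peaks the shares were 6.83% (4.55 to 10.1%) with a K562 GFI1 peak and 1.96% (1.63 to 2.34%) without. At promoters it was present at 8.40% (4.75 to 14.4%) of the members and 1.71% (1.17 to 2.5%) of the other LSD1 peaks. In the windows beside the promoter members it was present in 4.20% (2.36 to 7.36%), an interval that overlapped that of their summits. Members with the core included those at TMEM237, ACVR2A, C1QTNF8 and HMGN4 among the largest THP1 GFI1 peaks. The IBA57 cores shown above lay 42 and 29 bp from the summit, outside this 50 bp window.

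The GATA core, bound by factors that govern red cell genes, was present at 27 members (8.97%, 6.24 to 12.7%), at 11.9% (11.1 to 12.7%) of the other LSD1 summits and at 11.7% of all LSD1 summits. In the windows 2000 bp away it was present in 5.15% (3.65 to 7.22%) at members and in 4.13% (3.79 to 4.49%) at the others. The intervals of members and others overlapped, as did those of the member summits and the windows beside them. At promoters it was present at 6.11% (3.13 to 11.6%) of the members and 4.87% (3.90 to 6.07%) of the others, and away from promoters at 11.2% (7.27 to 16.8%) and 14.1% (13.1 to 15.1%), with overlapping intervals in both. Among members it was present at 17.6% (10.4 to 28.4%) of those with a K562 GFI1 peak and at 6.44% (3.94 to 10.3%) of those without. The same split at the other LSD1 peaks gave 21.4% (17.3 to 26.2%) and 11.3% (10.6 to 12.2%). Both cores were found at 2 members, 1 of them the UBAC1 site shown above.

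The SP core GGGCGG was present at 7.64% (5.15 to 11.2%) of the members and 3.87% (3.42 to 4.38%) of the other LSD1 summits, and the intervals did not overlap. At promoters, where more of the members lay, the shares were alike, at 9.92% (5.89 to 16.2%) and 9.81% (8.41 to 11.4%). Away from promoters they were 5.88% (3.23 to 10.5%) and 1.97% (1.61 to 2.40%). The E-box cores CAGCTG and CAGATG were present at 8.97% (6.24 to 12.7%) and 12.2% (11.4 to 13.0%), and the RUNX core TGTGGT at 7.64% (5.15 to 11.2%) and 5.60% (5.06 to 6.20%), with overlapping intervals for each. For RUNX the shares were 3.05% (1.19 to 7.59%) and 2.57% (1.88 to 3.49%) at promoters. Away from promoters they were 11.2% (7.27 to 16.8%) and 6.58% (5.91 to 7.32%), with intervals that just overlapped. The ETS core GAGGAAGT was found at 4 members (1.33%, 0.518 to 3.37%) and at 0.272% (0.170 to 0.435%) of the other LSD1 summits, with intervals that did not overlap. The member share was close to that of the THP1 GFI1 summits without LSD1, at 1.71% (1.31 to 2.22%). The AP-1 cores TGACTCA and TGAGTCA were found at 5 members (1.66%, 0.712 to 3.83%) and at 1.58% (1.30 to 1.93%) of the others. The CTCF core CNAGNGGGC was found at 3 (0.997%, 0.34 to 2.89%) and at 0.656% (0.484 to 0.889%) of the others. The C/EBP cores TTGCGCAA and TTGCATCA were found at 2 (0.664%, 0.182 to 2.39%) and at 0.0960% (0.0440 to 0.209%) of the others. The intervals overlapped for AP-1, CTCF and C/EBP, and the ETS, CTCF and C/EBP shares rest on 2 to 4 members each. Over all LSD1 summits, ETS, AP-1, CTCF and C/EBP cores were at 0.321%, 1.59%, 0.672% and 0.122%. The SP, E-box and RUNX cores were at 4.05%, 12.0% and 5.70% of them.

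**Figure D4:**
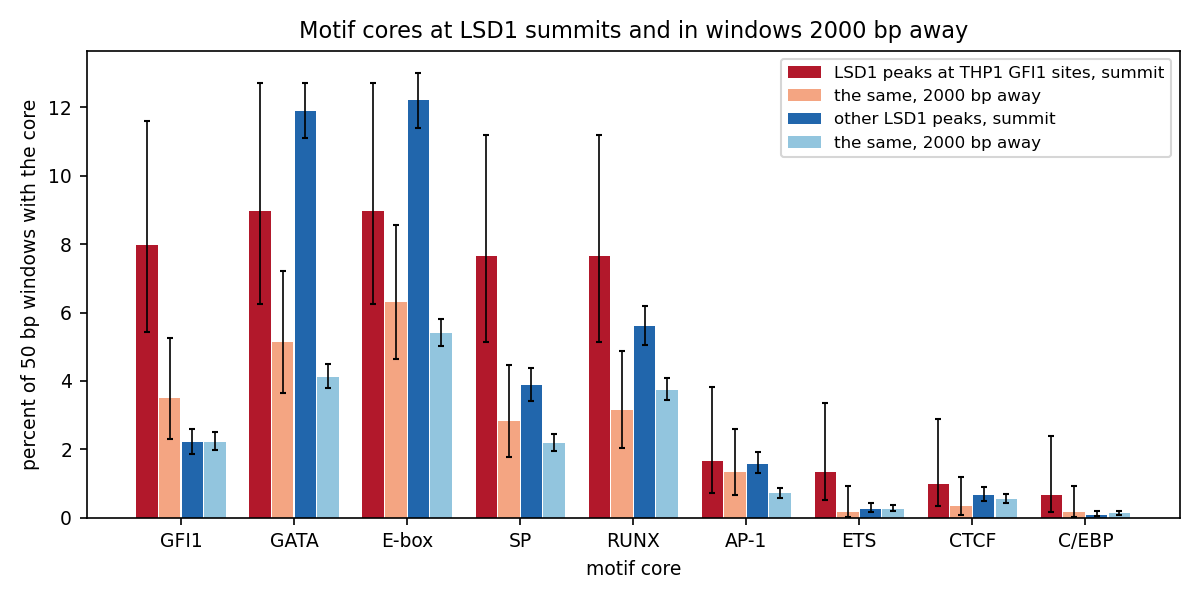
Percent of 50 bp windows with each motif core at the LSD1 summit and 2000 bp away, for the members (red) and the other LSD1 peaks (blue), with 95% Wilson intervals. The GFI1 core stands at 7.97% at member summits and 2.21% at the other summits, and the GATA core at 8.97% and 11.9%.

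**Figure D5:**
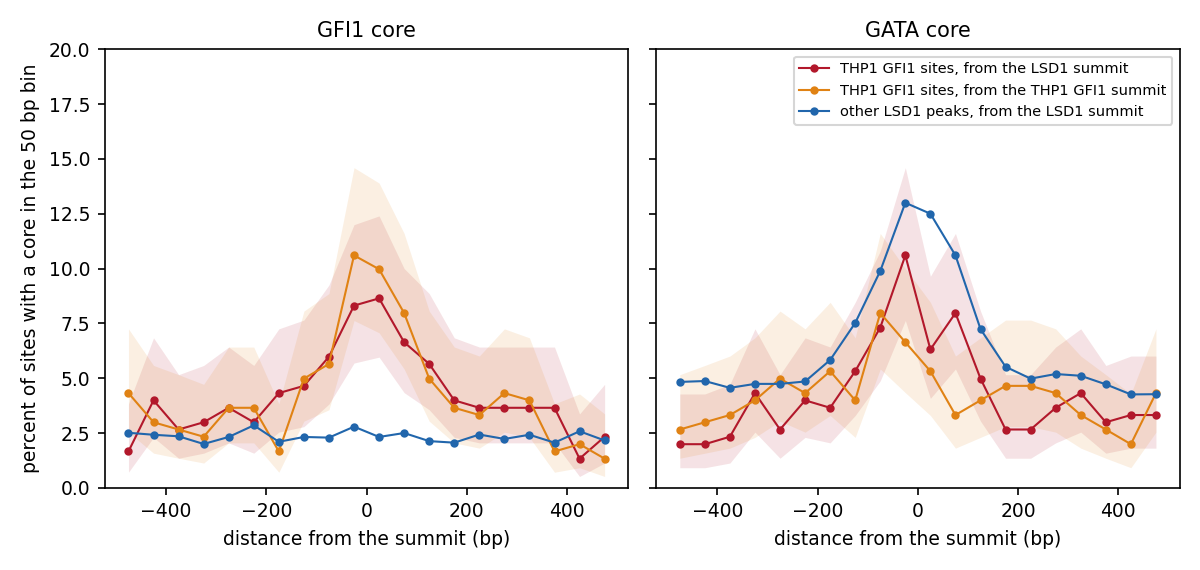
Percent of sites with a GFI1 core (left) or GATA core (right) in bins of 50 bp within 500 bp of the summit, for members around the LSD1 summit (red) and the THP1 GFI1 summit (orange), and for the other LSD1 peaks (blue), with shaded 95% Wilson intervals for members. In the bin just before the summit, GFI1 cores reach 8.31% (red) and 10.6% (orange), and GATA cores 10.6% (red) and 6.64% (orange).

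The 301 members had 291 different nearest genes, and 9 of these genes had more than 1 member. PPIAL4F had 3, and DDIT4, H3-7, HNRNPF, NBPF1, PFKM, PKM, PPIAL4H and SLC29A1 had 2 each. At PPIAL4F 2 of the 3 sites, and at PPIAL4H and H3-7 1 of the 2 each, had a summit sequence that occurs more than once in the genome build. PFKM encodes a phosphofructokinase, PKM a pyruvate kinase, DDIT4 an inhibitor of mTOR signalling and HNRNPF an RNA-binding protein.

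Of all 20028 protein-coding genes, 4835 had an LSD1 summit in the gene or within 10000 bp of it, and 352 of these (7.28%) had a member. Among 57 hematopoietic transcription factors, 29 had an LSD1 summit and 4 a member, at CEBPE, ID2, ID3 and NFE2. The members at the promoters of ID2 and ID3, inhibitors of helix-loop-helix factors, had LSD1 folds of 9.82 and 8.59, THP1 GFI1 folds of 8.67 and 22.2, and K562 GFI1 folds of 8.27 and 8.24. The NFE2 member is the intron site of COPZ1 shown above, with an LSD1 fold of 20.6, a THP1 GFI1 fold of 7.72 and no K562 GFI1 peak. NFE2 drives platelet and globin genes. Among 22 red cell genes, 15 had an LSD1 summit and 0 a member. Beside the 7.28% of all genes, 15 genes are too few to tell 0 from that share. A THP1 GFI1 summit was at 1 of the 22 (4.55%), beside 13.8% of all protein-coding genes. Neighbouring globin genes are on this list, so its genes are not all independent.

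Among 18 neutrophil granule genes, 5 had an LSD1 summit and 3 of these a member (60.0%, beside 7.28% over all genes with an LSD1 summit). PRTN3 (proteinase 3) and ELANE (neutrophil elastase) shared 1 member, in intron 1 of PRTN3, with an LSD1 fold of 15.1 and a THP1 GFI1 fold of 10.3. CFD, complement factor D, had a weak member in intron 11 of MED16, with folds of 4.91 and 9.15. Neither had a K562 GFI1 peak. The 3 genes with a member, PRTN3, ELANE and CFD, are neighbours on chromosome 19 and are not independent. They had 7, 6 and 5 LSD1 summits in or near them, so a member there is less telling.

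The other lists are small, and each held 1 or 2 genes with a member. Their shares of the genes with an LSD1 summit, to be read beside the 7.28% of all genes, rest on 5 to 11 genes each. Among 25 myeloid receptors and kinases, 11 had an LSD1 summit and 1 a member, FCGR1A, the high-affinity IgG receptor, with an LSD1 fold of 8.98, a THP1 GFI1 fold of 7.73 and a K562 GFI1 fold of 7.93. Among 16 genes of the LSD1 corepressor complex, 7 had an LSD1 summit and GSE1 had a member, with an LSD1 fold of 6.20. GSE1 is a long gene with 32 LSD1 summits in or near it, so a member there is less telling. Among 19 cytokine and MAP kinase feedback genes, 8 had an LSD1 summit and 2 a member. These were DUSP1, a MAP kinase phosphatase, and SPRED1, an inhibitor of RAS signalling, with LSD1 folds of 5.81 and 9.16 and THP1 GFI1 folds of 12.8 and 11.4. Among 22 cell cycle and survival genes, 10 had an LSD1 summit and CCND3, with 12 LSD1 summits, had a member with an LSD1 fold of 6.55. Among 13 platelet and megakaryocyte genes, 5 had an LSD1 summit and 1 a member, near TUBB1 at the promoter of ATP5F1E, with an LSD1 fold of 6.14. None of the members at GSE1, DUSP1, SPRED1, CCND3 or TUBB1 had a K562 GFI1 peak.

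Some members lay in repeated sequence, where the placement of reads is uncertain. The 50 bp at the summit occurred more than once in the genome build for 17 members (5.65%, 3.56 to 8.86%) and for 9.08% (8.39 to 9.81%) of the other LSD1 peaks. They included members at FCGR1A, H3-7, PPIAL4F, PPIAL4H, GPIHBP1, TRIM69 and NBPF4. Only exact copies of the 50 bp were counted, so the tandem repeat at the CDH15 member is not among them. Among the 284 members whose window occurred once, 64 had a K562 GFI1 peak (22.5%, 18.1 to 27.7%), against 5.30% (4.75 to 5.91%) of the 5680 other LSD1 peaks of this kind.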

How the data were processed

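Peak lists of 5 ChIP-seq libraries were used, the LSD1 and GFI1 lists of K562 cells and the GFI1 and SPI1 lists of THP1 cells. Input and mouse H3K4me1 samples were not analysed here. Per the submitters' processing notes, the authors used Trim Galore 0.6.1, Bowtie2 2.5.4, Picard 3.1.0 and MACS2 2.2.9.1 on GRCh38, and called peaks in each library alone. Use of the inputs as controls is not given in the sources used here. The deposited fold is a ratio of pileup to local background at the summit. The deposited p-value and q-value are on a −log10 scale. The deposited score, 10 times the −log10 p, was not used.

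Overlaps were counted at 1 bp and checked with bedtools 2.31.1. Fragments were solved from fold and −log10 p with a pseudocount of 1, and a whole number was found for 100% of peaks at a tolerance of 0.01. This depth is low and limits the precision of single peaks. Genes came from GENCODE release 44, and each site was named by its nearest protein-coding start. Named sites were the 10 members largest in LSD1, THP1 GFI1 and K562 GFI1 −log10 p, those at listed genes, 5 each with SPI1 and sg-LSD1 GFI1 peaks, and those nearest the limit of the rule. Members and lists were chosen with earlier results of these data known. Alternatives were other overlaps, thresholds, promoter distances, windows and cores. Methods were tested on simulated data. Python 3.11.15, numpy 2.4.6, pandas 2.3.3, scipy 1.17.1, pysam 0.24.0 and matplotlib 3.10.9 were used. The sequence at PRTN3 intron 1 is not reported here.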

Additional observations from a re-analysis of the deposited data

How the results depend on the processing

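Across 44 alternatives for 8 results, 36 stayed within the counting interval of the reported value, or for the number of members within 1.5 times of it. The number of members ranged from 213 to 375. A −log10 p of at least 8 in every list raised the median LSD1 fold from 7.42 to 8.28 and the median THP1 GFI1 fold from 7.73 to 8.69, since it removes weak peaks. The promoter share of 43.5% became 33.2% within 500 bp and 59.5% within 5000 bp of a start, and 47.5% with the starts of all transcripts of protein-coding genes, a setting chosen after seeing the data. The share of member summits with the GFI1 core rose from 7.97% to 15.0% in windows of 100 bp, 25.6% in windows of 200 bp and 12.3% at the THP1 GFI1 summit, and to 42.5% with the shorter core AATC, which 26.9% of the other LSD1 summits also held. The share of members with a K562 GFI1 peak ranged from 19.2 to 25.8%. No paired analysis was possible because each condition had 1 library and no result comes from a test. The low fragment numbers and the short K562 GFI1 lists limit the K562 GFI1 shares, and sites under the calling threshold were not counted. The median fragment number was 11 in the sg-NT K562 GFI1 list and 12 in the longer THP1 GFI1 list. These medians cover called summits only, so they cannot compare the depth of the 2 libraries. The paper puts the small number of GFI1 sites down to technical limits of the antibodies, which was not tested here.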
